A study of Mus musculus with 7 samples.

Results

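The aryl hydrocarbon receptor (AHR) and the enzymes that turn 7,12-dimethylbenz[a]anthracene (DMBA), a polycyclic aromatic hydrocarbon carcinogen, into its DNA-binding form were followed across cultured mouse mammary glands. The 9 genes were chosen by name: Ahr, Arnt and Ahrr for the receptor and its partners, Cyp1a1, Cyp1a2, Cyp1b1 and Ephx1 for the activation of DMBA, and Aldh3a1 and Tiparp as further targets of the receptor. They are 9 of the 13971 gene symbols that could be given to a probe, and each of the 9 had 1 probe. The study asked how the estrogen receptors ERα and ERβ shape normal and preneoplastic mammary growth, and measured glands of female mice, 4 weeks old, on CodeLink whole-genome arrays with 1 array per group. Before excision the mice received estrogen (1 µg) with progesterone (1 mg) for 9 days or EGF (25 ng) with progesterone for 5 days. Both schedules stand in the sample descriptions, and the study's text ties EGF with progesterone to the WT, αERKO and βERKO arrays. For the other 4 arrays the schedule is not given in the sources used here. All glands then grew for 10 days with insulin, prolactin, aldosterone and hydrocortisone, and the glands taken at 24 days spent the last 14 days with insulin alone.

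The 7 groups were as follows. Wild-type C57 glands were taken at 10 days without DMBA, at 24 days without DMBA, and at 24 days with DMBA, the last being the study's WT group. The αERKO and βERKO glands lack the ERα or the ERβ gene, came from lines made on a C57BL6/129SV background, and were taken at 24 days. Wild-type Balb/c glands were taken at 24 days with or without vitamin D5, a form of vitamin D. DMBA was given at 2 µg/ml for 24 h on day 3, so every 24-day gland that received it was harvested 20 days after exposure ended. The knockout sample titles do not name DMBA, which comes from the protocol, and the Balb/c titles give neither DMBA nor a dose of vitamin D5. RNA of 5 mice was pooled on the WT, αERKO and βERKO arrays, so an array holds no spread between animals, and genotype and strain background cannot be told apart. The WT and βERKO glands on the arrays carried DMBA-induced alveolar lesions and the αERKO glands had none, so genotype and lesions cannot be told apart either. The methods also say that nothing from αERKO glands was taken for molecular work, although an αERKO array exists and the study's discussion describes it as glands free of lesions.

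AHR is a receptor that waits in the cytoplasm with HSP90 chaperones until a ligand such as a polycyclic hydrocarbon binds it. It then enters the nucleus, pairs with ARNT and binds DNA at a short core, GCGTG, near genes such as Cyp1a1, Cyp1b1, Tiparp and Ahrr. AHRR and TIPARP act back on the receptor as repressors. DMBA is made carcinogenic in steps, in which a CYP1 enzyme, CYP1B1 in many tissues outside the liver, forms an epoxide, microsomal epoxide hydrolase (EPHX1) opens it to a diol, and a CYP1 enzyme oxidises the diol once more to the diol epoxide that binds DNA.

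The promoter windows of the main DMBA-activating genes and of Ahrr are printed here because they show which carry the letters that AHR with ARNT reads. Each is the 250 bases before the annotated start, 5′ to 3′ along the gene, from RefSeq on GRCm38.p6. Capitals mark GCGTG, or CACGC where the core lies on the other strand. The Cyp1a1 window is chr9:57697363-57697612 (plus strand), that of Cyp1b1 is chr17:79715062-79715311 (minus strand), that of Ahrr is chr13:74292332-74292581 (minus strand) and that of Ephx1 is chr1:181017570-181017819 (minus strand).
Cyp1a1: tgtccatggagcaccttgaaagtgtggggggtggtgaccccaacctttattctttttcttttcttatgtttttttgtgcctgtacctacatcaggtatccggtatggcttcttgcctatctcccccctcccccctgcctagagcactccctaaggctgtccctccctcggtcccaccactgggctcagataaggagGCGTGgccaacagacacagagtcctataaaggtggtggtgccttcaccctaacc
Cyp1b1: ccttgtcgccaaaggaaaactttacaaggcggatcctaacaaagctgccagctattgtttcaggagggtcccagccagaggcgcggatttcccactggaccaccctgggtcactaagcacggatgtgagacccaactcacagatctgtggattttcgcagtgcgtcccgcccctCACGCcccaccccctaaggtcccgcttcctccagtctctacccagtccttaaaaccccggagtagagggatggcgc
Ahrr: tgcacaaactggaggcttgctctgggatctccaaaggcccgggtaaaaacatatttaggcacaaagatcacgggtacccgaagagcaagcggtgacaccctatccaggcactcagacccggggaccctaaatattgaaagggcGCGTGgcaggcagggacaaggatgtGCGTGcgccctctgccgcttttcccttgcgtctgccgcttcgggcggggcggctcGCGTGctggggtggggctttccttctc
Ephx1: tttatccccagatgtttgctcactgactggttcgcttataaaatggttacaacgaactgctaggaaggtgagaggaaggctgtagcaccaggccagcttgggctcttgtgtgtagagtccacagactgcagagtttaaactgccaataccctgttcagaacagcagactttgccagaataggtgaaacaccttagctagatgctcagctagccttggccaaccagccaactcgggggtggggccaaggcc

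Cyp1a1 held the core at bases 54 to 50 before its start, and Cyp1b1 held it on the other strand at bases 76 to 72. Ahrr held 3 copies, which begin 107, 82 and 27 bases before its start. Arnt (chr3:95434140-95434389, plus strand) held it at bases 29 to 25 and Tiparp (chr3:65528197-65528446, plus strand) on the other strand at bases 170 to 166. Ephx1 and Cyp1a2 (chr9:57683656-57683905, minus strand) held none in this window. Thus 5 of the 7 members with an entry held the core on either strand, against 28.2% of all 32851 promoter windows of this length, and the longer form TNGCGTG stood in 1 of the 7, Ahrr, against 4.1% of windows. Ahr and Aldh3a1 had no entry. A match is a description of letters, not a binding site.

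Values are log2 of a probe's intensity over the median intensity of the gene probes on its array, so 0 is the array's median probe and a difference of 1 is 2-fold. They compare arrays for the same probe and do not rank probes against each other. The arrays held 34967 gene probes, had median intensities of 39.1 to 53.0 over local backgrounds of 80 to 83, and gave 68.4% to 74.2% of probes a good quality call, which means above background. The Esr2 probe was brightest on the array of βERKO glands, at 0.87, and near background on 5 of the other arrays. Whether it lies in the deleted part of the gene is not given in the sources used here, so that array is called the array labelled βERKO. The Esr1 probe was near background on 5 arrays, among them αERKO at -3.76, and good only on WT with DMBA (-1.02) and Balb/c with vitamin D5 (-0.74), so it checks little. With 1 array per group there is no replicate error and no test. Differences are set beside the spread between probes of the same transcript on the same arrays, which is technical only. Where 2 arrays are compared, a member counts as different when it changed over 2-fold and was good on at least 1 of them, and the count is read against the share of all such probes.

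Of the 63 member values, 62 were good, the exception being Cyp1a2 on C57 at 24 days without DMBA. The members differed widely in how much they varied over the 7 arrays. Cyp1b1 spanned 40.6-fold, Aldh3a1 17.1-fold, Ephx1 12.8-fold, Cyp1a1 7.26-fold and Ahr 4.24-fold. Arnt spanned 2.34-fold, Tiparp 1.86-fold and Ahrr 1.36-fold, and Cyp1a2, near background on its lowest array, at least 2.47-fold. The αERKO array was the lowest of the 7 for Cyp1b1, Ephx1, Aldh3a1 and Ahr.

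**Figure D1:**
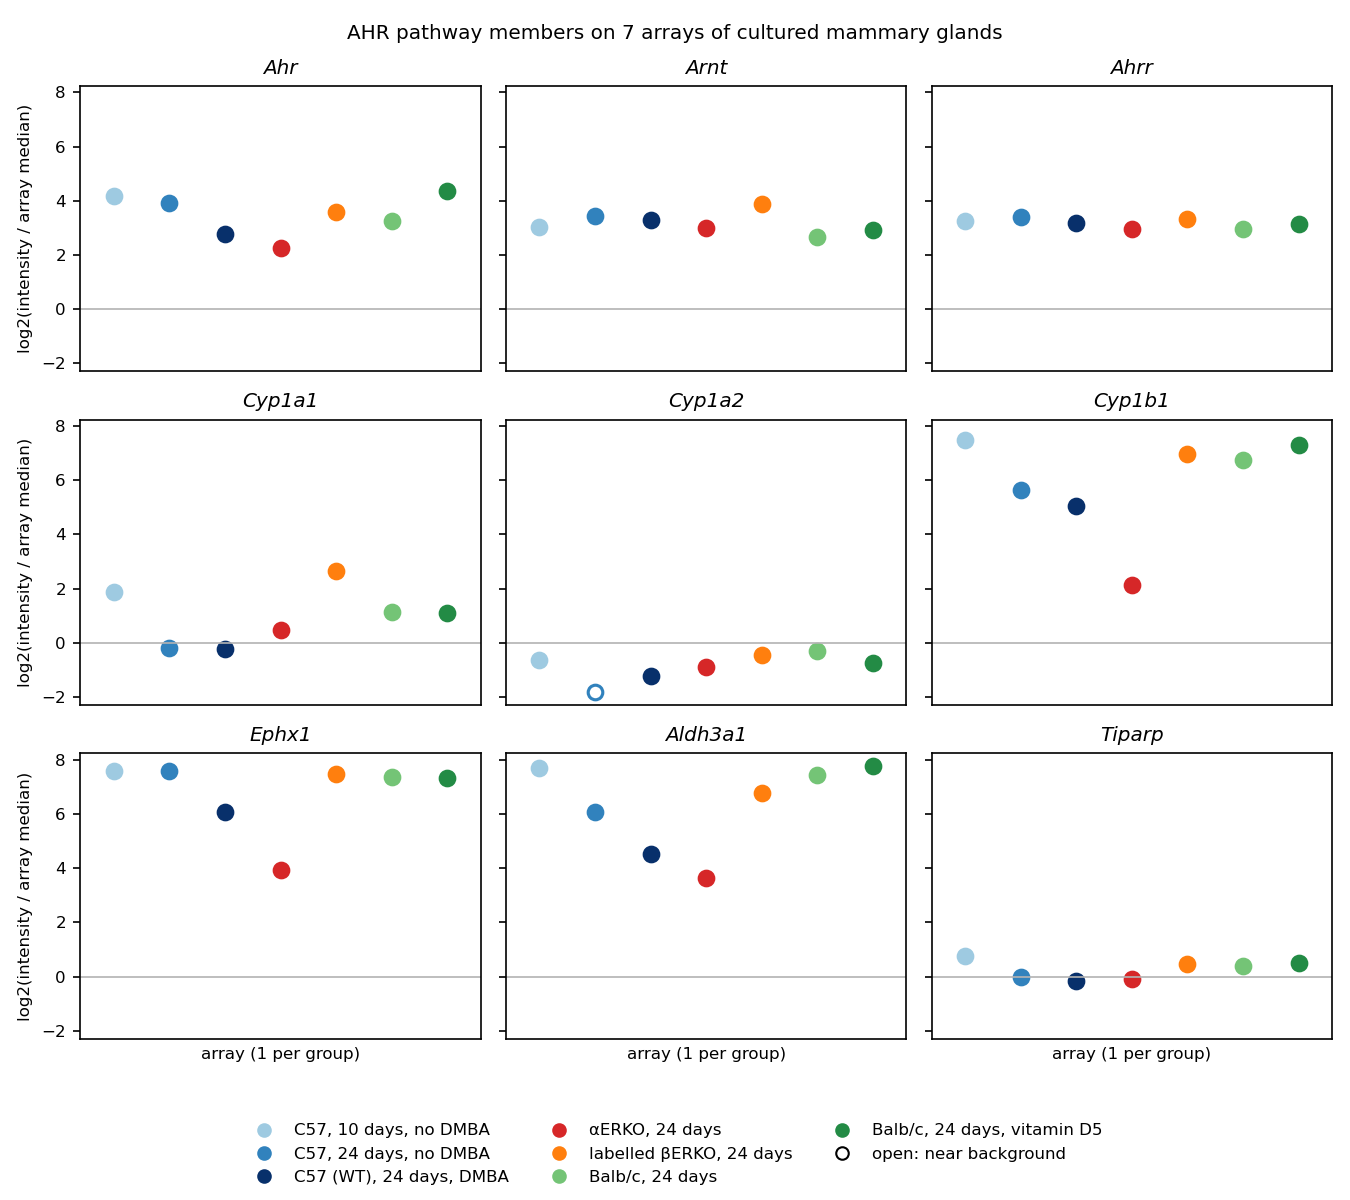
Each panel plots 1 member on the 7 arrays as log2 of intensity over the array median, with 1 point per array and an open point where the probe was near background. Cyp1b1, Ephx1 and Aldh3a1 sit at 2.13, 3.92 and 3.66 on αERKO, below all other arrays, while Ahrr stays between 2.96 and 3.40.

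Ahr, the receptor itself, read 4.18 on C57 at 10 days, 3.92 on C57 at 24 days without DMBA, 2.76 on WT with DMBA, 2.27 on αERKO, 3.58 on the array labelled βERKO, 3.24 on Balb/c and 4.36 on Balb/c with vitamin D5. The lowest values were thus those of αERKO and of WT with DMBA, and the gaps between neighbours in the order ran from 0.17 to 0.49. Arnt, the DNA-binding partner of AHR, read 3.05, 3.42, 3.28, 2.98, 3.88, 2.65 and 2.92 on the arrays in the same order. It was highest on the array labelled βERKO, 0.46 above the next array, and lowest on Balb/c. Ahrr, the repressor that competes with AHR for ARNT, read 3.27, 3.40, 3.19, 2.96, 3.33, 2.96 and 3.14. It spanned 0.44, from Balb/c to C57 at 24 days without DMBA, a comparison where the spread between probes was SD 0.33.

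Cyp1b1, the enzyme that oxidises DMBA in many tissues outside the liver, read 7.47 on C57 at 10 days, 5.64 on C57 at 24 days without DMBA, 5.06 on WT with DMBA, 2.13 on αERKO, 6.98 on the array labelled βERKO, 6.76 on Balb/c and 7.29 on Balb/c with vitamin D5. The αERKO array stood 2.93 below the next array, and the 4 highest arrays lay between 6.76 and 7.47. Cyp1a1, the most strongly AHR-induced CYP1 enzyme, read 1.88, -0.18, -0.21, 0.47, 2.65, 1.12 and 1.10 on the same arrays. Its highest array was the one labelled βERKO and its lowest were the C57 arrays at 24 days, which with and without DMBA differed by 0.03. Cyp1a2, best known from the liver, was dim on every array, with intensities of 30.0, 12.8, 21.9, 20.9, 31.0, 40.4 and 31.9, all below the local background level of 80 to 83 that had been subtracted. Its ratios are therefore imprecise, and those with C57 at 24 days without DMBA, where it was near background, are given as bounds. Such a bound holds for values divided by the array median only and leaves out noise in the brighter value.

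Ephx1, the epoxide hydrolase of the step between the CYP1 reactions, read 7.59 on C57 at 10 days and again 7.59 on C57 at 24 days without DMBA. It read 6.08 on WT with DMBA, 3.92 on αERKO, 7.49 on the array labelled βERKO, 7.35 on Balb/c and 7.34 on Balb/c with vitamin D5. The 5 highest arrays lay between 7.34 and 7.59, so Ephx1 was near a constant level except on WT with DMBA and on αERKO. Aldh3a1, an aldehyde dehydrogenase induced through AHR, read 7.70, 6.08, 4.54, 3.66, 6.78, 7.44 and 7.75 in the order used above. The C57 10-day array and both Balb/c arrays were the highest for it, and WT with DMBA and αERKO the lowest. Tiparp, a feedback repressor of AHR that marks proteins with ADP-ribose, read 0.74, -0.03, -0.15, -0.10, 0.46, 0.41 and 0.49. It was close to the array median throughout, at intensities of 36.5 to 78.1.

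Glands exposed to DMBA (the WT array) were compared with unexposed C57 glands, both at 24 days, 20 days after exposure ended. The pretreatment schedule and the pooling of the unexposed glands are not given in the sources used here. A difference in these and an effect of DMBA therefore cannot be told apart. Ahr, Ephx1 and Aldh3a1 were lower with DMBA by over 2-fold, and no member was higher by as much. Aldh3a1 was 2.91-fold lower (log2 ratio -1.54), Ephx1 2.84-fold lower (-1.5) and Ahr 2.23-fold lower (-1.16), where the spread between probes was SD 0.31. These are 3 of 9 members, against 18.6% of all probes compared. Ahr fell short of 2-fold under cyclic loess and under normexp background correction (both -0.96), which left 2 members. Of the CYP1 genes, Cyp1a1 stood at -0.03 and Cyp1b1 at -0.58. Cyp1a2 was at least 1.31-fold brighter with DMBA under the main scaling, but under normexp its log2 ratio was 0.09. Over the 9 members the median log2 ratio was -0.20, and over all probes -0.13. In a whole gland, fewer cells of a type and less RNA per cell cannot be told apart, and the cell markers also moved. Of 7 epithelial markers, 3 (Krt8, Krt18 and Krt14) were over 2-fold lower with DMBA and their median log2 ratio was -0.74, while all 5 fibroblast markers were higher, with a median of 4.26. The endothelial markers Kdr (3.51) and Pecam1 (2.44), the adipocyte markers Cfd (2.75) and Lep, and the macrophage marker Lyz2 (1.29) were over 2-fold higher as well. Of the skeletal muscle markers, Acta1 was over 2-fold higher (1.38) and Tnnt3, near background with DMBA, over 2-fold lower. The part of these cells in the result was not tested.

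Between 10 and 24 days of culture without DMBA, C57 glands passed from the hormone-driven growth phase through 14 days of insulin alone. At 24 days Cyp1a1 was 4.17-fold lower (log2 ratio -2.06), Cyp1b1 3.56-fold lower (-1.83) and Aldh3a1 3.08-fold lower (-1.62), with a spread between probes of SD 0.23. The Cyp1a1 probe was dim at 24 days, with an intensity of 39.7, and under normexp its ratio was -1.25. Cyp1a2 was at least 1.97-fold lower, and its measured ratio of -1.17 put it among the 4 of 9 members past 2-fold, against 12.4% of all probes. Since it was near background at 24 days, it dropped out under normexp (-0.31), with a floor at the lowest good value (-0.98) and where both arrays had to be good, leaving 3. Ephx1 was level at -0.00 and Ahr stood at -0.26. Ahrr stood at 0.13, Arnt at 0.37 and Tiparp at -0.77. All probes compared had a median of 0.09 and the members -0.77. The basal keratin markers moved too, with Krt5 at -1.64 and Krt14 lower by over 2-fold, though the median of the 7 epithelial markers was 0.00. All 4 adipocyte markers measured were higher, with a median of 2.95, as were the endothelial marker Kdr and the muscle marker Tnnt3. The fibroblast marker Dcn stood at -1.92, and the part of these cells was not tested.

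**Figure D2:**
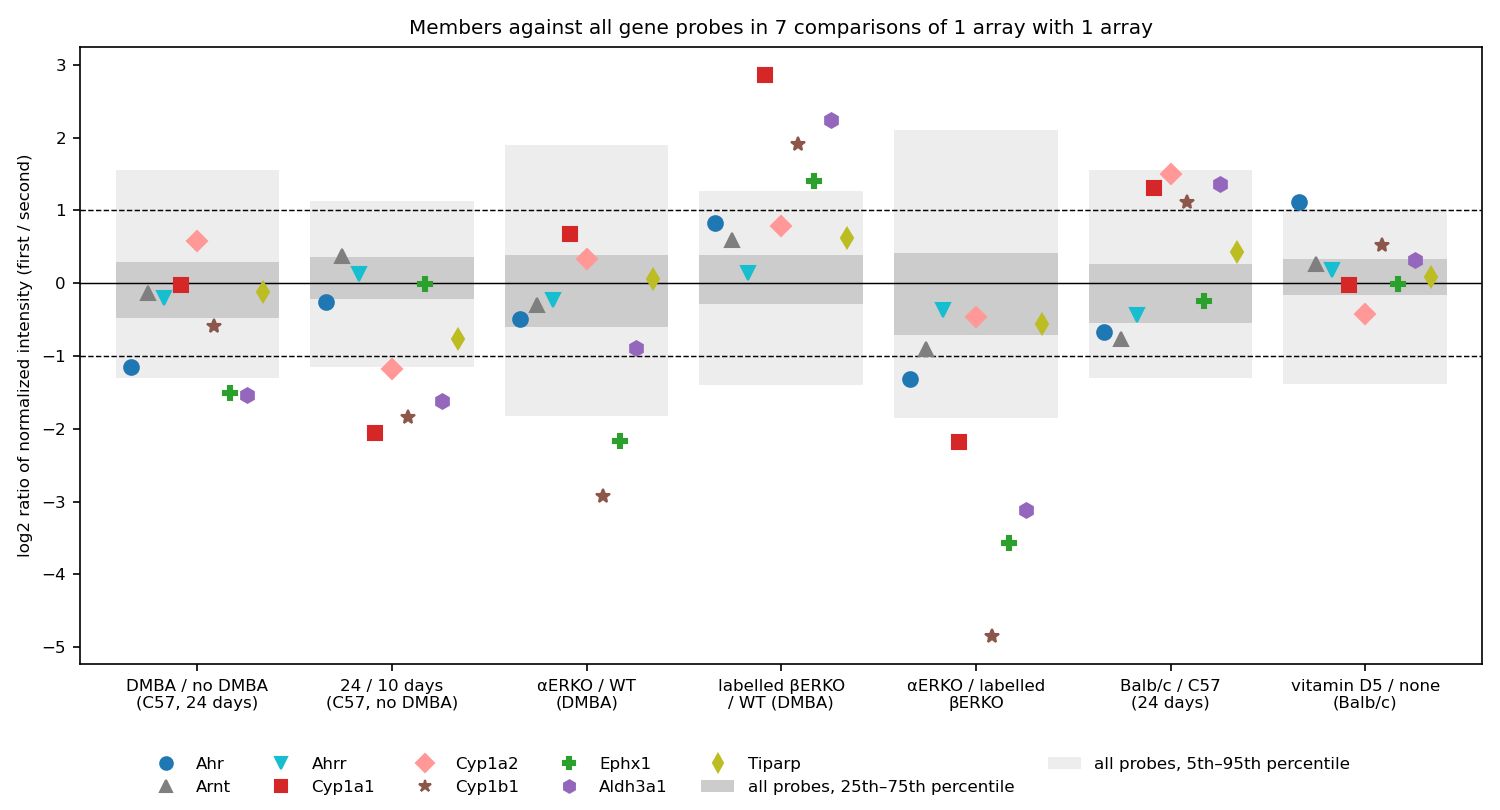
Log2 ratios of the 9 members in 7 comparisons, each of 1 array with 1 array, beside the 5th to 95th and 25th to 75th percentiles of all gene probes (light and dark bands). Dashed lines mark 2-fold. In αERKO over WT, Cyp1b1 (-2.93) and Ephx1 (-2.17) lie below the light band, which ends at -1.82, and in the array labelled βERKO over WT 4 members lie above it.

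The αERKO glands were set against WT glands, both with DMBA at 24 days, a comparison that the study also made. Here Cyp1b1 was 7.60-fold lower in αERKO (log2 ratio -2.93) and Ephx1 4.50-fold lower (-2.17), and the spread between probes was SD 0.60. Thus 2 of 9 members passed 2-fold, against 25.8% of all probes, a share near the background. Cyp1b1 and Ephx1 catalyse successive steps of DMBA activation. Aldh3a1 stood at -0.88, Ahr at -0.49, Arnt at -0.30 and Ahrr at -0.23, while Cyp1a1 stood at 0.68, Cyp1a2 at 0.33 and Tiparp at 0.05. None of these 7 passed 2-fold, though under normexp Aldh3a1 did (-1.01), which gave 3 members. The member median was -0.30 and that of all probes -0.09.

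The αERKO gland also differed in its cell markers. The summed intensity of 7 epithelial markers was 424 times the array median on αERKO, the lowest of the 7 arrays, against 570 on WT with DMBA and 840 to 1503 on the others. Within that list 3 of 7 were over 2-fold lower than in WT, namely the basal keratins Krt14 (log2 ratio -2.42) and Krt5 (6.43 on WT, 5.16 on αERKO) and the luminal keratin Krt8 (4.61 and 2.96). The luminal keratin Krt19 stood at 0.19 and the list's median at -1.0. Skeletal muscle markers summed to 463 on αERKO, all 4 of them good, against 1.45 to 29.8 on the other arrays, where at least 2 of the 4 were near background. Fibroblast markers summed to 399 on αERKO, against 200.2 on WT with DMBA and 12.0 to 64.3 elsewhere, and adipocyte markers to 2105 against 158 to 1346. Lyz2, the 1 macrophage marker with a probe, was at 38.8 times the array median on αERKO and 219 on WT with DMBA, a log2 ratio of -2.50, and ran from 11.3 to 89.4 elsewhere. The 3 endothelial markers summed to 25.6 on αERKO and 15.4 on WT, with Kdr at 1.29 and Pecam1 at -1.52, and to between 1.19 and 5.16 elsewhere. The part of these tissues in the member values was not tested.

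On the array labelled βERKO 4 members were over 2-fold higher than in WT with DMBA. Cyp1a1 was 7.26-fold higher (log2 ratio 2.86), Aldh3a1 4.72-fold (2.24), Cyp1b1 3.78-fold (1.92) and Ephx1 2.64-fold (1.40), beside a spread between probes of SD 0.37. These 4 of 9 members compare with 15.3% of all probes. Cyp1a1 was dim on WT, with an intensity of 44.6, and under normexp its ratio was 1.84, below the 2.04 of Aldh3a1. The other 5 members were above 0 as well, with Ahr at 0.82, Cyp1a2 at 0.79, Tiparp at 0.62, Arnt at 0.60 and Ahrr at 0.14, although Ahrr was at -0.01 under cyclic loess scaling. The member median was 0.82 and that of all probes 0.09. Krt14 was higher by 1.35 and the median of the epithelial markers was 0.40, while 4 of 5 fibroblast markers were lower, with a median of -1.10. Lyz2 (-1.86), the endothelial markers Kdr (-1.78) and Pecam1 (-1.46) and the adipocyte marker Cfd (-1.22) were lower and the muscle marker Acta1 higher (2.32). The part of these cells was not tested. The same WT array serves here and in the DMBA comparison, where Ephx1, Aldh3a1 and Ahr were low on it, so the comparisons are not independent.

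Set directly against the array labelled βERKO, αERKO was lower for every member, from -0.37 for Ahrr to -4.84 for Cyp1b1, except that Ahrr stood at 0.00 under cyclic loess. Cyp1b1 was 28.7-fold lower, Ephx1 11.9-fold, Aldh3a1 8.70-fold, Cyp1a1 4.52-fold and Ahr 2.48-fold. These 5 of 9 members stand against 30.1% of all probes, and the spread between probes was SD 0.56. The median was -1.31 over the members and -0.18 over all probes. Of the epithelial markers, 5 of 7 were over 2-fold lower in αERKO with a median of -1.13, and Krt14 stood at -3.77. All 4 muscle markers (median 7.73), all 5 fibroblast markers (median 2.46), the adipocyte marker Cfd (3.25) and the endothelial marker Kdr (3.07) were over 2-fold higher, and their part was not tested. Under cyclic loess the Ahr ratio was -0.93, short of 2-fold, and under normexp that of Cyp1a1 was -1.52.

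Because the WT array with DMBA was itself low for several members, the knockouts were also set against the range of the 5 wild-type arrays. The αERKO array lay below all 5 for Ahr, Cyp1b1, Ephx1 and Aldh3a1, which is 4 of 9 members against 34.5% of all probes. It lay more than 2-fold below the lowest wild-type array for Cyp1b1 and Ephx1, as did 6.93% of all probes. The distances were 2.93 and 2.17 on the log2 scale. In both cases that lowest array was WT with DMBA. For Ahrr, αERKO lay within 0.00 of Balb/c, the lowest wild-type array. Under the other scalings and sets of wild-type arrays tried, 4 to 6 members lay below the range. The array labelled βERKO lay above all 5 wild-type arrays for Cyp1a1, by 0.77, and for Arnt, by 0.46, which is 2 of 9 members against 18.6% of probes, and neither gap reached 2-fold. For Cyp1b1, Ephx1 and Aldh3a1 it lay inside the wild-type range.

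**Figure D3:**
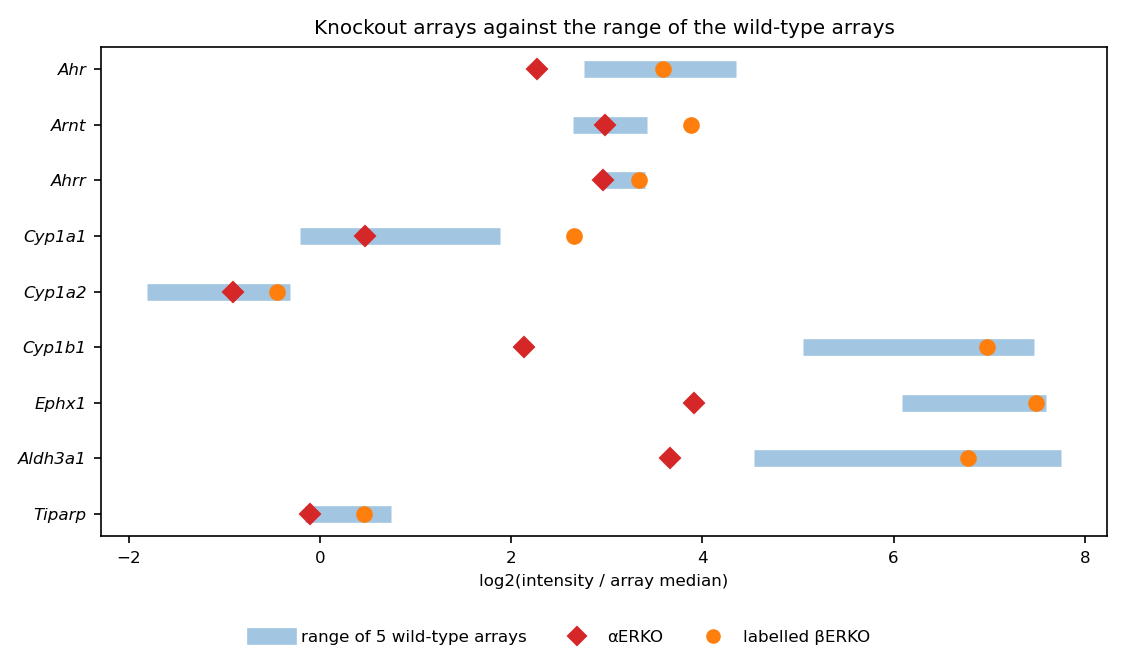
Log2 of intensity over the array median on αERKO (diamonds) and on the array labelled βERKO (circles), with bars for the range of the 5 wild-type arrays. The αERKO diamonds of Cyp1b1 and Ephx1 lie 2.93 and 2.17 below the bars, and the circles leave the bars for Arnt and Cyp1a1.

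The Balb/c gland was compared with the C57 gland at 24 days without DMBA, with the caution that DMBA is not stated for Balb/c. Aldh3a1 was 2.57-fold higher in Balb/c (log2 ratio 1.36), Cyp1a1 2.47-fold (1.30) and Cyp1b1 2.18-fold (1.12), and Cyp1a2 was at least 2.47-fold higher. These 4 of 9 members compare with 18.5% of all probes, and the spread between probes was SD 0.33. Arnt stood at -0.77, Ahr at -0.68 and Ahrr at -0.44, none past 2-fold. Tiparp stood at 0.43. Ephx1 stood at -0.24, which became 0.11 under cyclic loess. With normexp, which raises dim values, Cyp1a1 read 0.73 and Cyp1a2 0.43 and neither passed 2-fold. The member median was 0.43 and that of all probes -0.15. Krt5 was higher in Balb/c by 1.36 and Krt8 stood at -1.46, while all 4 adipocyte markers were lower with a median of -3.55. The macrophage marker Lyz2 stood at -2.99, the fibroblast marker Dcn at 2.28, and of the endothelial markers Kdr was over 2-fold lower and Cdh5 higher. Of the dim muscle markers Ckm was over 2-fold higher and Tnnt3 over 2-fold lower. Their part was not tested.

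Balb/c glands with and without vitamin D5 were compared, and the share of members past 2-fold was near that of all probes. Ahr was 2.16-fold higher with vitamin D5 (log2 ratio 1.11, spread between probes SD 0.23), which is 1 of 9 members against 12.2% of all probes, and it fell short of 2-fold under 3 of the scalings tried, with a lowest value of 0.95. Cyp1b1 stood at 0.53, Aldh3a1 at 0.31, Arnt at 0.26 and Ahrr at 0.18. Cyp1a1 and Ephx1 were level at -0.02 and -0.00, Tiparp stood at 0.08, and the dim Cyp1a2 at -0.42. The member median was 0.18 and that of all probes 0.09. The epithelial markers had a median of 0.56, with Krt8 higher by 1.02. Of 5 fibroblast markers Col3a1 and Lum were over 2-fold higher, with a list median of 0.88, and the adipocyte marker Adipoq stood at -1.95. The endothelial marker Cdh5 stood at -2.43, and of the dim muscle markers Acta1 and Ckm were lower and Tnnt3 higher. Their part was not tested.

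For Cyp1b1 and Aldh3a1, the members with the widest range, the genes most alike in pattern were sought. Likeness was the root mean square difference over the 7 arrays of log2 values centred on each gene's mean, among 9337 genes good on every array. The gene nearest to Cyp1b1 was Krt14, which forms filaments in basal and myoepithelial cells, at 0.40, followed by Tc2n at 0.54 and Plet1 at 0.54. The nearest to Aldh3a1 were Bnip5 at 0.35, Lgals7, a galectin of stratified epithelium, at 0.40, and Csta2, a stefin, at 0.41. Among the members, Aldh3a1 was the 8th nearest gene to Cyp1b1 (0.61) and Ephx1 the 20th (0.70), while Ahr was 378th at 1.21 and Arnt 5673rd. These are descriptions over 7 arrays that share their scaling, with the αERKO array the farthest from the rest for Cyp1b1, Ephx1 and Krt14. Krt14 read 7.80, 6.48, 5.19, 2.77, 6.54, 7.27 and 8.0 on the arrays in the order used above, lowest on αERKO as Cyp1b1 was.

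**Figure D4:**
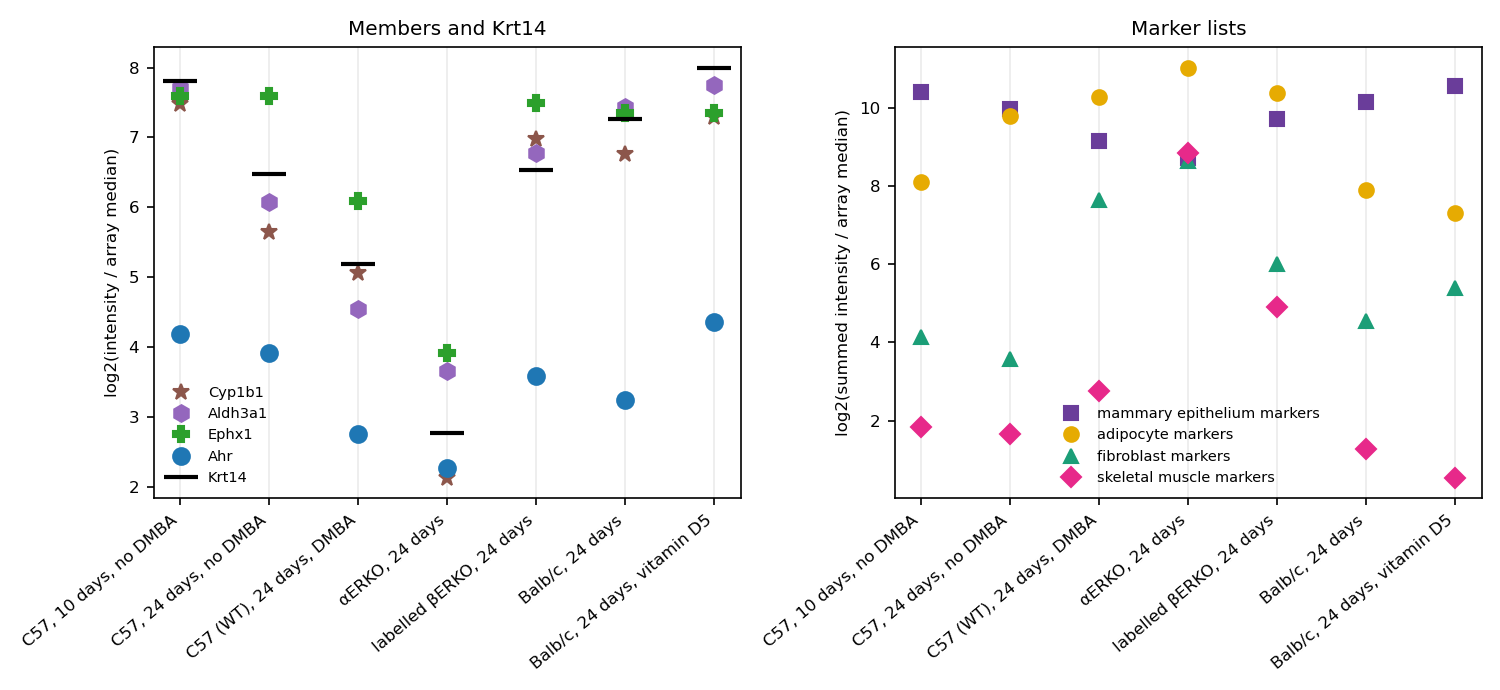
Left, Cyp1b1, Aldh3a1, Ephx1 and Ahr beside Krt14 (black bars) on the 7 arrays, as log2 of intensity over the array median. Right, log2 of the summed intensity of 4 marker lists over the array median, where αERKO has the lowest epithelial sum (424) and the highest skeletal muscle sum (463).

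Other genes around the receptor were read from lists. Of 10 chaperones and partners of AHR with a probe, none was over 2-fold higher in any of the 7 comparisons. In αERKO against WT 3 of the 9 compared were lower, led by Arntl, the clock partner BMAL1, at -1.92, with Ptges3 (the HSP90 cochaperone p23) and the corepressor Nrip1, against 25.8% of all probes past 2-fold. Against the array labelled βERKO 6 of 10 were lower in αERKO, again led by Arntl at -2.27, against 30.1% of all probes. With DMBA 1 of 10 was lower, the inducible HSP90 chaperone Hsp90aa1 at -1.57, against 18.6% of all probes, and Balb/c was lower than C57 for 2 of 10, Arntl (-1.24) and Rela, against 18.5%. No chaperone or partner passed 2-fold between 10 and 24 days, between the array labelled βERKO and WT, or with vitamin D5, where 12.4%, 15.3% and 12.2% of all probes did.

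Another 15 genes known as AHR targets did not all differ in the same direction. With DMBA none was higher and 4 were lower, namely Nqo1, Gsta1, Slc7a5 and Serpinb2, against 18.6% of all probes past 2-fold, and the list's median was -0.47. Nqo1, a quinone reductase, read 6.90 on C57 at 10 days, 6.09 on C57 at 24 days without DMBA, 4.34 on WT with DMBA, 0.47 on αERKO, 6.49 on the array labelled βERKO, 6.38 on Balb/c and 6.68 on Balb/c with vitamin D5. It was thus lowest on αERKO and next lowest on WT with DMBA, the order also seen for Ahr, Ephx1, Cyp1b1 and Aldh3a1. The epithelial markers Krt5, Krt14, Krt18, Epcam and Cdh1 had this order too, and Krt8 and Krt19 did not. The share of all probes with this order was not counted, but 34.5% lay below all 5 wild-type arrays on αERKO. Gsta1, a glutathione transferase with near-identical copies that its probe may also read, was lower with DMBA by -5.63.

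In αERKO against WT 3 of the 15 targets were higher and 5 lower, from Ido1, which degrades tryptophan, at 5.00 to Nqo1 at -3.88, where 25.8% of all probes passed 2-fold. On the array labelled βERKO 5 were higher than in WT, led by Gsta1 at 4.85, and 3 were lower, against 15.3% of all probes. The lower ones were Lpcat2 (-1.83), Socs2, and Slc7a5, which was near background on the array labelled βERKO. In αERKO against the array labelled βERKO 3 were higher and 9 lower, from Ido1 at 4.86 to Gsta1 at -6.25, against 30.1% of all probes. Between 10 and 24 days 2 were higher, led by Socs2 (1.78), and 2 lower, led by Aldh1a3 (-2.29), a retinaldehyde dehydrogenase, against 12.4% of all probes. Balb/c was higher than C57 for 3, led by Ereg (1.72), and lower for Areg (-1.31) and for Socs2, whose spot was called irregular on Balb/c, against 18.5% of all probes. Ereg and Areg are ligands of the EGF receptor. With vitamin D5 2 were higher, led by Aldh1a3 (1.32), and 1 was lower, against 12.2% of all probes.

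CYP1 enzymes need electrons from cytochrome P450 reductase. Its gene, Por, ranged from 5.14 to 6.29 and was highest on αERKO (6.29) and on the array labelled βERKO (6.25), on which Cyp1b1 read 2.13 and 6.98. Of the 6 electron donor genes with a probe, Cyb5r1, a cytochrome b5 reductase, was the 1 that most often differed, at -1.09 with DMBA, -1.18 in αERKO against WT, -1.95 in αERKO against the array labelled βERKO and -1.06 in Balb/c against C57. In each of these 5 donors were compared, and the shares of all probes past 2-fold were 18.6%, 25.8%, 30.1% and 18.5%. Cyb5r3 was also lower in αERKO than on the array labelled βERKO, and Fdxr, good on 2 arrays only, was the 1 of 6 donors lower at 24 than at 10 days, against 12.4% of all probes. None of the donors passed 2-fold between the array labelled βERKO and WT or with vitamin D5 (15.3% and 12.2% of all probes), and none was higher by over 2-fold in any comparison.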

How the data were processed

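RNA was measured on 7 CodeLink 1-colour arrays, 1 per group. The authors scanned them and, with the CodeLink software, deposited an intensity per spot (mean spot signal with the local background's median subtracted), a call of its quality and a normalized intensity. A genome build is not given in the sources used here. The deposited series table was not used because its entries match no probe column. The gene probes (34967) were kept and control spots left out. Intensities at or below 0 (246 to 344 probes per array) were raised to the lowest positive value, divided by the array's median and log2-transformed, as the study's methods divide by the median. Probes were named through their RefSeq accessions, of which 15553 carried one and 14763 were matched, to 13971 symbols, and a gene was led by its brightest probe.

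A member counted as different where its log2 ratio passed 1 in size and it was good on at least 1 array. Where it was near background on 1 array, a lower bound of the fold came from the dimmest good probe there. The bound holds for the main scaling only and leaves out noise in the brighter value. The spread is the SD of a single probe's log2 ratio, from paired probes for a shared accession (511 to 538 pairs). It is the root mean square difference between the paired ratios, divided by the square root of 2. Alternatives were the 75th percentile, quantile and cyclic loess scaling, normexp (offset 50) in limma 3.58.1 (R 4.3.3), the deposited normalized intensity, other filters and thresholds. The counting was tested on simulated data. The named genes are the members, the gene with the largest rise and fall, among probes good on both arrays, in each of 7 pathway lists and some of 6 marker lists, and the 3 genes most like each of the 2 widest-ranging members. A gene beyond these was named after its values were seen. Members and lists were chosen with earlier results of these data known. With 1 array per group no p-value can be given.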

Additional observations from a re-analysis of the deposited data

How the results depend on the processing

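No member past 2-fold changed direction under any setting tried. Ratios near 0 changed sign for Arnt and Cyp1a1 (DMBA), Ahrr (the array labelled βERKO against WT and against αERKO), Ephx1 (Balb/c over C57 and vitamin D5) and Tiparp (vitamin D5). Of 84 recounts of members over 2-fold or below the wild-type range 75 stayed within 1.5 times the reported count. With DMBA the 3 members became 0 at a 3-fold threshold. For αERKO over WT the 2 became 4 at 1.5-fold, and for the array labelled βERKO over WT the 4 became 8. For Balb/c over C57 the 4 became 2 with normexp and 0 at 3-fold. With vitamin D5 the 1 member, Ahr, was lost under the 75th percentile, quantile normalization, cyclic loess and a 3-fold threshold, leaving 0. The causes were not tested, except that a stricter threshold counts fewer by construction. Of 441 recomputed log2 ratios 425 moved by less than the spread between probes, 10 moved further under normexp, all for Cyp1a1, Cyp1a2 or Tiparp, whose probes are dim, and 6 under cyclic loess. Scaling shifted the median of probes good on both arrays by up to 0.24 (cyclic loess, αERKO over the array labelled βERKO) and 0.22 (75th percentile, Balb/c over C57). Averaging a gene's probes changed nothing because each member has 1. The deposited normalized intensity shifted the median by at most 0.0049 (Balb/c over C57), and the floor altered only ratios of Cyp1a2. These settings could hardly move a ratio and add to the 425 by construction. No paired analysis was possible because each group has 1 array, which is also the main limit: no value here has a replicate.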

Other observations

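Among other enzymes that handle foreign compounds, some spanned a wide range. Cyp2e1, a P450 that oxidises ethanol and small solvents, read 1.29 on C57 at 10 days, 7.86 on C57 at 24 days without DMBA, 9.02 on WT with DMBA, 9.28 on αERKO, 3.47 on the array labelled βERKO, 0.90 on Balb/c and 0.90 on Balb/c with vitamin D5, on the log2 scale over the array median. It was thus high on the 24-day C57 and αERKO arrays and low on the others. Its log2 ratio was 6.57 between 24 and 10 days, -5.55 for the array labelled βERKO over WT, 5.81 for αERKO over the array labelled βERKO, and -6.95 for Balb/c over C57. All 4 adipocyte markers measured were over 2-fold higher at 24 than at 10 days and lower in Balb/c than in C57. For the array labelled βERKO over WT 1 of 4 was lower, with a median of -0.20, and for αERKO over that array 1 of 4 was higher, with a median of 0.38. Their part in the Cyp2e1 ratios was not tested. Cyp2f2 was lower with DMBA (-3.44) and higher in αERKO than in WT (3.50). Over the 7 comparisons the list of other P450 enzymes, of which 7 to 9 were compared, held 0 to 4 genes over 2-fold higher and 0 to 2 lower, where 12.2% to 30.1% of all probes passed 2-fold either way.

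Conjugating and detoxifying enzymes differed in both directions. With DMBA 3 of 20 were higher, led by Ephx2 (1.61), the soluble epoxide hydrolase, and 5 lower, led by Akr1c18 (-3.50), which inactivates progesterone, against 18.6% of all probes past 2-fold either way. In αERKO against WT 4 of 21 were higher, led by Sult1a1 (2.49), a phenol sulfotransferase, and 4 lower, led by Hmox1 (-4.70), haem oxygenase, against 25.8% of all probes. Hmox1 read 2.62 on αERKO and 7.32 to 9.13 on the other arrays. On the array labelled βERKO 5 of 20 were higher than in WT and 2 lower (15.3% of all probes), and αERKO against that array gave 3 higher and 7 lower (30.1%). At 24 against 10 days 2 of 20 were higher and 0 lower (12.4% of all probes), Balb/c against C57 gave 1 higher and 7 lower (18.5%), and vitamin D5 gave 1 higher and 0 lower (12.2%). Ephx2 read 6.08 on αERKO and 4.63 on WT, whereas Ephx1 was lowest on αERKO.

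Nucleotide excision repair genes, which remove bulky DMBA adducts from DNA, were not over 2-fold higher in any of the 7 comparisons. Of 14 compared, 2 were lower with DMBA (Ddb2 at -1.19 and Rad23b), 3 in αERKO against WT (Gtf2h1, a TFIIH subunit, at -1.46, Ercc1 and Ercc5), 4 in αERKO against the array labelled βERKO and 2 in Balb/c against C57, and 0 in the other 3 comparisons. All probes past 2-fold made up 18.6%, 25.8%, 30.1% and 18.5% in the first 4 of these. In the other 3 they made up 12.4% (24 over 10 days), 15.3% (the array labelled βERKO over WT) and 12.2% (vitamin D5). The share of repair genes was thus near or below that of all probes past 2-fold either way. All the repair genes past 2-fold were lower, however. Lower probes alone were 2353 of 27808 with DMBA and 3923 of 27812 in αERKO against WT. They were 4478 of 27026 in αERKO against the array labelled βERKO and 2618 of 28069 in Balb/c against C57. The list's median ran from -0.73 (Balb/c over C57) to 0.37 (24 over 10 days), where all probes had -0.15 and 0.09. Among nuclear receptors that sense foreign compounds and lipids, Pparg, the adipocyte regulator, was higher with DMBA (1.75) together with Nr1h3, and both were higher in αERKO than on the array labelled βERKO, while Nr1h2 was lower in αERKO (-1.03). Nr1i3, good on 1 array, was lower at 24 than at 10 days, and the other 4 comparisons had 0 of these receptors past 2-fold. The shares of all probes there were 25.8% (αERKO over WT), 15.3% (the array labelled βERKO over WT), 18.5% (Balb/c over C57) and 12.2% (vitamin D5). Of 6 compared, 2 passed with DMBA and 3 in αERKO against the array labelled βERKO, and of 7 compared 1 passed between 10 and 24 days, against 18.6%, 30.1% and 12.4% of all probes. The xenobiotic receptor Nr1i2 was near background on all 7 arrays.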
